A study of Xenopus laevis with 5 samples.

Results

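The genes described here mark the cement gland and the epidermis of the Xenopus laevis embryo: agr2, itln1 and the krt12 keratins. They were taken as every probe set whose single gene symbol in the platform annotation is agr2 or itln1 or begins with krt12. That gave 10 probe sets of 9 genes, copies counted apart, out of 15490 probe sets tested and 7530 named genes. None of these names stood in a probe set with several symbols (0 found). The genes were selected on their measured levels in these arrays, above all their spread among controls, so their levels and their differences between zic1 and control are given as a description. Counts and errors taken from the fit over all probe sets stand beside the share of all probe sets, and nothing is read from them about these genes.

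Affymetrix arrays measured total RNA of ectodermal explants in 2 zic1 samples and 3 controls. At the 2 cell stage, embryos received RNA for a zic1 that is activated by hormone, or beta globin as the control, and both groups received noggin as well. Explants were cut at stage 9, grown to an age matching stage 12, given cycloheximide for 30 min and then dexamethasone, and collected after 3 h in both groups. The labels call the arrays biological replicates without naming embryos or days, so the spread between them may be partly technical.

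Ectoderm exposed to BMP signals becomes epidermis, and ectoderm shielded from them, here by noggin, becomes neural. The cement gland, a mucus-secreting organ at the front of the tadpole's head, forms from anterior ectoderm next to the neural plate, and explants given noggin can make it. Agr2 (anterior gradient 2) belongs to the protein disulfide isomerase family of the secretory pathway and is a cement gland gene in Xenopus. Itln1, known in Xenopus as the embryonic epidermal lectin XEEL, is a carbohydrate-binding protein that the epidermis secretes. The krt12 genes code for type I keratins, and krt12.4, also called XK81A1, is a widely used marker of embryonic epidermis. The endings .L and .S name the copies of a gene on the L and S chromosomes of this allotetraploid species, which are close enough in sequence to share signal on short probes.

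Each value below is a probe set's linear ratio to its own median over the 5 arrays, so at least 1 array of each probe set reads exactly 1. The brightness itself was not kept in the deposited table. Levels of different genes can therefore not be compared, and no marker of a cell type can be called present or absent. Precision is limited by having 5 arrays.

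The agr2 copies shared their highest array, control 2, and differed in the zic1 arrays. Agr2.L read 0.989 and 1.01 with zic1 against 1.00, 2.98 and 0.852 in controls 1, 2 and 3. Control 2 stood alone at about 3 times the other arrays, and the groups overlapped. Agr2.S read 0.441 and 0.703 with zic1 against 1.23, 2.07 and 1.00 in the controls. Both zic1 arrays lay below all 3 controls for agr2.S. On the log2 scale the copies differed from each other, agr2.S minus agr2.L, by -1.17 and -0.52 with zic1 and by 0.30, -0.53 and 0.23 without it, relative to each copy's own median.

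Itln1.L was the most variable of these genes. It read 0.118 and 1.00 with zic1 against 0.446, 2.47 and 2.78 in the controls. Zic1 replicate 1 and control 1 were low, controls 2 and 3 were high, and the groups overlapped because zic1 replicate 2 exceeded control 1. The highest array was 23.5 times the lowest, the 5th widest range of the 15490 probe sets, where the median range was 1.31-fold. The zic1 replicates alone were 8.47-fold apart, and no probe set had a wider gap between those 2 arrays.

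Among the keratins, the krt12.4 copies and krt12.5.S varied in the same direction as itln1.L in most arrays. Krt12.4.S read 0.295 and 1.00 with zic1 against 0.898, 2.47 and 1.76 in the controls. Krt12.4.L read 0.550 and 1.00 with zic1 against 0.513, 1.83 and 1.31 in the controls. Control 2 was the highest array for both copies, control 1 was as low as zic1 replicate 1 only for krt12.4.L, and the groups overlapped in both. Krt12.5.S, a further type I keratin known as XK81B2, read 0.522 and 1.00 with zic1 against 0.974, 1.48 and 1.28 in the controls. Its order of arrays was that of krt12.4.S over a narrower range, 2.83-fold against 8.36-fold.

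The other krt12 probe sets were nearly flat. Krt12.2.L has 2 probe sets, which share 1 source sequence and are not independent. Their ratios ran from 0.887 to 1.13 in one and from 0.950 to 1.08 in the other, whose ID marks probes that can bind further transcripts. Krt12.2.S ran from 0.843 to 1.09 and krt12.6.S from 0.909 to 1.01. In these 4 probe sets the highest array was less than 1.3 times the lowest. In the RefSeq gene table of the assembly Xenopus_laevis_v10.1, krt12.4.S, krt12.5.S and krt12.6.S follow one another in a row, with krt20.S between them and krt12.2.S, so the variable and the flat keratins are near neighbours.

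**Figure D1:**
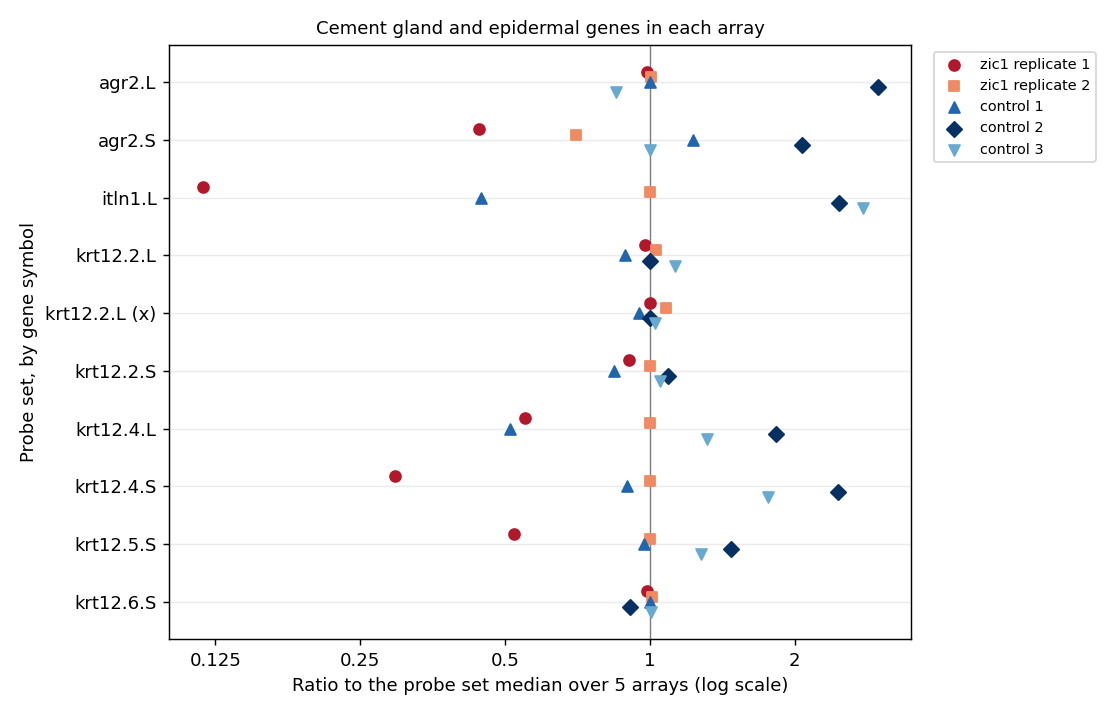
Ratio of each of the 10 probe sets to its own median over the 5 arrays (x axis, log scale), one row per probe set and one symbol per array; krt12.2.L (x) is the second probe set of that gene. Itln1.L runs from 0.118 in zic1 replicate 1 to 2.78 in control 3, agr2.L stands out in control 2 alone at 2.98, and the krt12.2 and krt12.6 probe sets stay near 1.

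Controls differed among themselves in these genes more than in most. The SD of the log2 ratio over the 3 controls was 1.48 for itln1.L, 0.98 for agr2.L, 0.95 for krt12.4.L, 0.74 for krt12.4.S and 0.54 for agr2.S. Each of these 5 lay above the 95th percentile of all probe sets, which was 0.39. Krt12.5.S had an SD of 0.31, at the 89.4th percentile, and the 4 flat probe sets lay at or below the 71.1th percentile, that of krt12.2.S. The median SD was 0.42 over the 10 probe sets and 0.13 over all 15490. These values partly led to the choice of the genes and show no more than that.

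Control 2 was the highest array in 6 of the 10 probe sets, in 9 of 23 probe sets of other keratins and in 20.3% of all probe sets. The 10 were chosen partly on their control values, so their share shows no trait of their own. Set against the mean of controls 1 and 3 on the log2 scale, control 2 was higher by 1.69 for agr2.L, by 1.16 for krt12.4.L, by 1.15 for itln1.L, by 0.97 for krt12.4.S and by 0.90 for agr2.S. By this measure agr2.L ranked 6th, krt12.4.L 25th, itln1.L 27th, krt12.4.S 42nd and agr2.S 58th of all probe sets. The other members ranked lower. Krt12.5.S was higher in control 2 by 0.41 (rank 658) and krt12.2.S by 0.21 (rank 2163). The krt12.2.L probe sets were at 0.0009 and 0.02 (ranks 6915 and 6272). Krt12.6.S was at -0.14 (rank 11778), with control 2 as its lowest array. Control 2 stood above both other controls in agr2 and krt12.4, whereas itln1.L was as high in control 3.

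**Figure D2:**
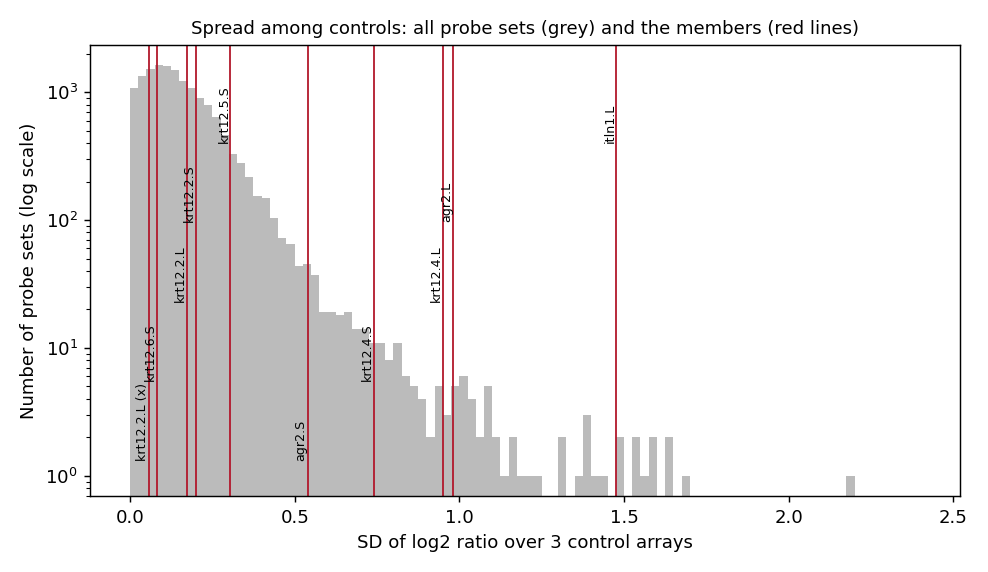
Number of probe sets (y axis, log scale) by the SD of the log2 ratio over the 3 control arrays (x axis) for all 15490 probe sets in grey, with the 10 probe sets of agr2, itln1 and krt12 as red lines. Itln1.L lies at 1.48, far into the tail, while krt12.6.S and 1 probe set of krt12.2.L lie at 0.08 and 0.06.

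The comparison of zic1 with control explants asks which transcripts change when zic1 is active and no new protein can be made. In 7 of the 10 probe sets the mean was lower in zic1 explants and in 3 it was higher. Of the 10 probe sets, 0 passed an adjusted p of 0.05 in limma, where 1.41% of all probe sets passed (1.1% with zic1 higher and 0.316% with zic1 lower), and 1 had an unadjusted p under 0.05, where 20.9% of all did. The groups did not overlap, with zic1 lower, in agr2.S alone (1 of 10, against 19.4% of all probe sets). The median log2 difference, zic1 minus control, was -0.49 over the 10 probe sets and -0.00021 over all. In a bulk sample, fewer cells of a type and less RNA per cell cannot be told apart.

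The estimates of zic1 minus control on the log2 scale, with the SE of the limma fit (n = 2 and 3), were -2.08 ± 1.1997 for itln1.L, -1.53 ± 0.65 for krt12.4.S and -1.29 ± 0.36 for agr2.S. Those of krt12.5.S (-0.76 ± 0.32), krt12.4.L (-0.53 ± 0.59) and agr2.L (-0.45 ± 0.56) were smaller. Among the differences above 1 in size, that of agr2.S had the smallest SE. The 4 flat probe sets had differences between -0.05 for krt12.2.S and 0.07 for 1 probe set of krt12.2.L.

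Single arrays set the size of most of these differences. Without control 2 the agr2.L difference went from -0.45 to 0.11, and it lay between -0.79 and -0.44 without each other array. Itln1.L was at -0.54 without zic1 replicate 1 and at -3.62 without zic1 replicate 2. Krt12.4.S was at -0.65 and -2.41 in the same order, and krt12.5.S at -0.29 and -1.23. Krt12.4.L was at -0.10 without zic1 replicate 1 and at -0.15 without control 2, but at -0.96 without zic1 replicate 2 and at -1.06 without control 1. Agr2.S stayed between -1.63 and -0.96 whichever array was left out.

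**Figure D3:**
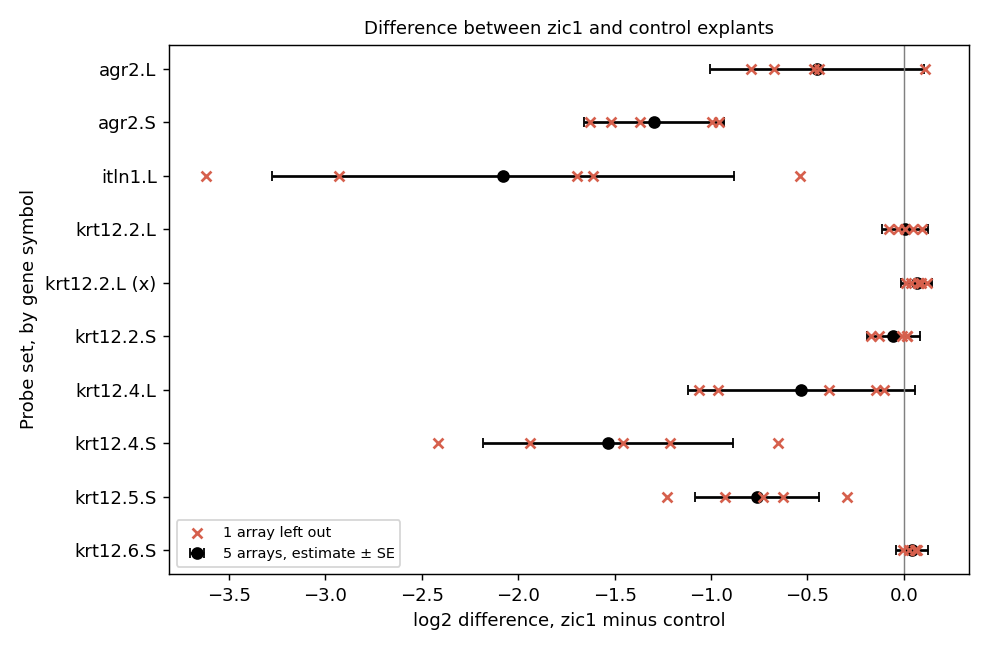
log2 difference, zic1 minus control (x axis), for each of the 10 probe sets: black points are the estimates from 5 arrays with the SE of the limma fit as bars, and red crosses are the estimates with 1 array left out. The crosses of itln1.L reach from -3.62 to -0.54, those of agr2.S from -1.63 to -0.96, and those of agr2.L fall on both sides of 0.

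Zic1 replicate 1 and controls 1 and 2 share many exactly equal values (788 to 944 in each pair, 35 to 73 in every other pair), a grouping that the labels do not mention. Within these 3 arrays the difference of zic1 from the mean control was -3.15 for itln1.L, -2.33 for krt12.4.S, -1.85 for agr2.S, -1.201 for krt12.5.S, -0.82 for krt12.4.L and -0.80 for agr2.L. Between the 2 arrays left over, zic1 replicate 2 and control 3, it was -1.47, -0.81, -0.51, -0.35, -0.39 and 0.24 in the same order of genes. The sign was negative in both groups of arrays for each of these probe sets except agr2.L. They were the members with the largest negative differences over all arrays, so these signs were largely given by that choice. Nothing is read from them. In the same order of groups, the flat krt12.2.L probe sets gave 0.05 and -0.13, and 0.04 and 0.07. Krt12.2.S gave -0.08 and -0.07, and krt12.6.S gave 0.05 and 0.004. The second group has 1 array of each kind and so no replicate of its own.

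The other genes of the cement gland list gave 11 probe sets of 6 genes (with the copies of a gene counted as 1, as for the epidermal list below), and their values separated into ag1 and the rest. Ag1 (XAG-1) is a relative of agr2 and a cement gland marker, and it is named here after its values were seen. One ag1.S probe set read 0.965 and 1.00 with zic1 against 1.09, 2.69 and 0.742 in the controls. The second read 1.00 and 1.2 with zic1 against 0.952, 3.15 and 0.533 in the controls. Both showed the pattern of agr2.L, with control 2 alone high, and they ranked 8th and 2nd of all probe sets in the excess of control 2. Ag1.L read 0.771 and 1.00 with zic1 against 0.597, 1.41 and 1.13 in the controls, with control 2 highest again. With agr2.L and agr2.S, all 5 probe sets with the symbol ag1 or agr2 were highest in control 2, where 20.3% of all probe sets were. Agr2 was chosen partly on its control values and ag1 was named after its values were seen. Nothing is therefore read from this count. The ag1.S probe sets measure the same gene, and L and S copies can share signal, so the 5 are not independent.

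Transcription factors of the anterior ectoderm that stand in the same list did not follow control 2. Otx2, a homeobox gene of the forebrain and cement gland region, differed by 0.28 ± 0.07, 0.29 ± 0.12 and 0.25 ± 0.09 in its 3 probe sets, with both zic1 arrays above all controls. Otx1.L, its relative, differed by 0.29 ± 0.08, eya1.L, a placode gene, by 0.47 ± 0.16, and pitx1.L, a homeobox gene of the cement gland and mouth, by -0.05 ± 0.07. Of the 11 probe sets 0 passed in limma (4 at an unadjusted p under 0.05, where 20.9% of all probe sets were). The groups did not overlap in 6 with zic1 higher, where 19.9% of all probe sets were so. The list's median difference was 0.10.

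**Figure D4:**
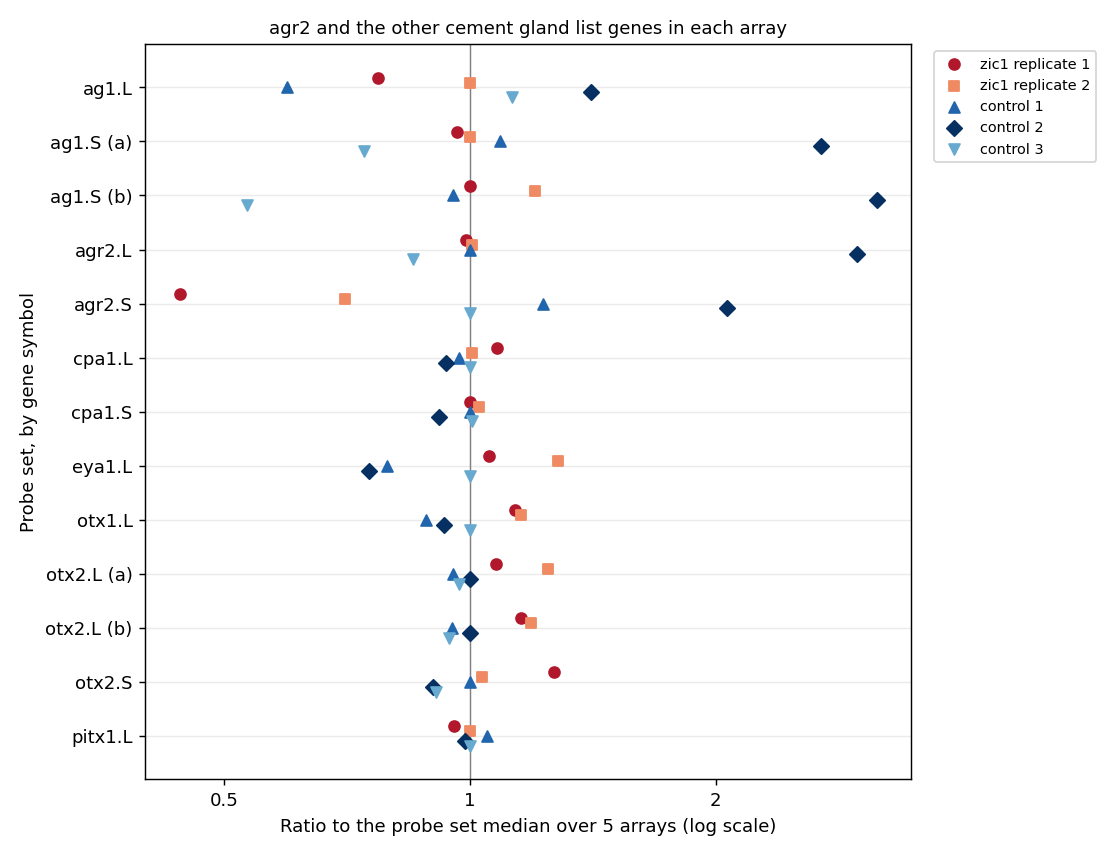
Ratio to the probe set's median over the 5 arrays (x axis, log scale) for agr2 and the other genes of the cement gland list, one row per probe set and one symbol per array; letters in brackets number the probe sets of one gene. The ag1 and agr2 rows have control 2 as their highest array, up to 3.15, and the otx2 rows have both zic1 arrays above the controls.

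The other keratins, chosen as symbols beginning with krt, gave 23 probe sets of 18 genes, with copies counted apart. One of them, krtcap3.L, is no keratin although its symbol begins with those letters. Their median log2 difference was -0.07, and 0 of 23 passed in limma (2 at an unadjusted p under 0.05, where 20.9% of all were). Those 2 were krtcap3.L (-0.74 ± 0.11, limma adjusted p = 0.0512), which stays in these counts, and krt18.1.S (-0.59 ± 0.21, limma adjusted p = 0.199). The highest array was more than 2-fold above the lowest in 2 of the 23 and in 7.70% of all probe sets. It was so in 6 of the 10 probe sets of agr2, itln1 and krt12. Those 10 were chosen partly for their spread over these arrays, so nothing is read from that contrast. Krt18.1.S, a keratin of simple epithelia, read 0.681 and 0.856 with zic1 against 1.03, 1.48 and 1.00 in the controls. Krt70.L read 0.944 and 1.25 with zic1 against 0.455, 1.00 and 1.14 in the controls, so its low array was control 1. Krt19.S was highest in control 2 at 1.49 and lowest in control 3 at 0.775.

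General epidermal genes were spread to both sides of 0. Their list also holds the krt17, krt18.1, krt19 and krt70 probe sets counted among the other keratins above. The counts of these lists thus partly repeat the same probe sets. In 39 probe sets of 23 genes the median log2 difference was -0.06, and 0 passed in limma (14 at an unadjusted p under 0.05, where 20.9% of all probe sets were). The groups did not overlap in 12 with zic1 lower and in 11 with zic1 higher, against 19.4% and 19.9% of all probe sets. Gata3.S, a zinc-finger factor of non-neural ectoderm, read 0.506 and 0.736 with zic1 against 1.00, 1.32 and 1.38 in the controls (-1.002 ± 0.22, limma adjusted p = 0.0888). On the other side lay dsp.L, the desmosomal protein desmoplakin (0.79 ± 0.16, limma adjusted p = 0.0807), evpl.L, the cornified envelope protein envoplakin (0.65 ± 0.13, adjusted p = 0.0760 in limma), and cyp26a1.L, which degrades retinoic acid (0.67 ± 0.12, adjusted p = 0.0657 in limma). None of these 4 passed.

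Genes of the other cells of frog epidermis were measured by few probe sets. Itln1 marks goblet cells of the epidermis, and of the goblet and small secretory cell list 4 other probe sets were measured. Of these 1 passed, where 1.1% of all probe sets passed with zic1 higher. The others were foxa1.S (0.36 ± 0.22), creb3l2.L (-0.08 ± 0.10) and xbp1.L (0.06 ± 0.19), with limma adjusted p from 0.421 to 0.891. The probe set that passed was that of tph1.L, the enzyme that starts serotonin synthesis, which rose by 0.82 ± 0.09 (limma adjusted p = 0.0360). It read 1.65 and 1.61 with zic1 against 1.00, 0.855 and 0.925 in the controls. Its difference lay between 0.76 and 0.87 whichever array was left out. The call was lost without control 1, 2 or 3 (limma adjusted p of 0.0829, 0.130 and 0.0554). Over all probe sets those fits called 21, 5 and 207. Fits with 1 zic1 array take their variance from the controls alone, so no call is read from them. The call was also lost after quantile normalization (limma adjusted p = 0.05002) and with the group of arrays as a block (0.0835). It held in limma with array weights (adjusted p = 0.0173), log2(value + 1) (0.0240), a robust prior (0.0421) and the replicate block (0.0126).

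The lists for multiciliated cells (15 probe sets), ionocytes (11) and the hatching gland (9) had 0 calls in limma, where 1.41% of all passed. They had 0, 3 and 2 probe sets at an unadjusted p under 0.05, where 20.9% of all probe sets were. Ccno.L, a cyclin of multiciliated cells, read 0.601 and 1.00 with zic1 against 0.905, 1.46 and 1.11 in the controls, the order of arrays seen for krt12.4.S. Tubb4b.S, with the largest t of that list, went the other way. It read 1.06 and 1.18 with zic1 against 0.951, 1.00 and 0.75 in the controls. The multiciliated list had 9 negative and 6 positive differences. Atp6v1b1.L, a subunit of the proton pump of ionocytes, read 0.776 and 1.01 with zic1 against 1.00, 2.01 and 0.979 in the controls, with control 2 alone high. The other ionocyte probe set with a wide control spread, of atp6v1a.L, was lowest in control 2. It read 1.279 and 1.00 with zic1 against 0.852, 0.787 and 1.385 in the controls. The ionocyte list had 4 negative and 7 positive differences, and its median log2 ratio in control 2 was -0.02. Prdm1.S, a repressor needed for the hatching gland and neural crest, had both zic1 arrays above all controls in 3 probe sets. Their differences were 0.66 ± 0.13, 0.61 ± 0.15 and 0.40 ± 0.16 (limma adjusted p = 0.0799, 0.113 and 0.250).

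Genes that respond to BMP signals in ventral ectoderm had lower means in zic1 explants in 16 of 22 probe sets (median -0.29). Limma called 0 of them, and 8 had an unadjusted p under 0.05, where 20.9% of all probe sets did. The groups did not overlap in 11 with zic1 lower and in 4 with zic1 higher, against 19.4% and 19.9% of all probe sets. Szl.L, the secreted BMP feedback regulator sizzled, read 0.405 and 0.605 with zic1 against 1.00, 1.53 and 1.32 in the controls, without overlap. As a list these genes had mean log2 ratios of -0.24 and -0.15 with zic1 against 0.05, 0.23 and 0.07 in the controls. Control 2 was the highest array here too. Whether these genes and the epidermal markers share a cause was not tested.

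Neural plate genes had higher means in zic1 explants in 11 of 12 probe sets (median 0.26) with 0 calls in limma. Of the 12, 6 had an unadjusted p under 0.05, where 20.9% of all probe sets did. The groups did not overlap in 7 with zic1 higher and in 1 with zic1 lower, against 19.9% and 19.4% of all. Of 10 mesoderm and muscle probe sets, 3 were higher and passed, where 1.1% of all probe sets did. These 3 were myod1.S (2.86 ± 0.18), vegt.L (2.49 ± 0.18) and myod1.L (1.67 ± 0.21). With 1 array left out they lay between 2.74 and 3.00, 2.37 and 2.65, and 1.38 and 1.96, in the same order. All 3 kept their call with the arrays sharing equal values as a block (limma adjusted p = 0.0335, 0.0462 and 0.0484). Array weights, log2(value + 1) and a robust prior kept it too. All 3 lost it without control 2 (limma adjusted p from 0.112 to 0.149), where 5 of all probe sets were called. Vegt.L (limma adjusted p = 0.0750) and myod1.L (0.0897) also lost it without control 1, and myod1.L without control 3 (0.0518) and after quantile normalization (0.0570). The endoderm list averaged 0.67 in control 3 and between -0.33 and -0.02 in the other arrays. It had 0 of 16 calls in limma (1.41% of all) and 3 probe sets at an unadjusted p under 0.05 (20.9% of all). Its differences were negative in 12 and positive in 4. The groups did not overlap in 6 with zic1 lower and in 1 with zic1 higher, against 19.4% and 19.9% of all. Sox17b.1.S differed by -2.04 ± 0.38 and -1.68 ± 0.39 in its probe sets (limma adjusted p = 0.0711 and 0.0971), with both zic1 arrays below all controls. Control 3 also held the highest itln1.L value. The part of such cells in the values of itln1, agr2 and krt12 was not tested.

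**Figure D5:**
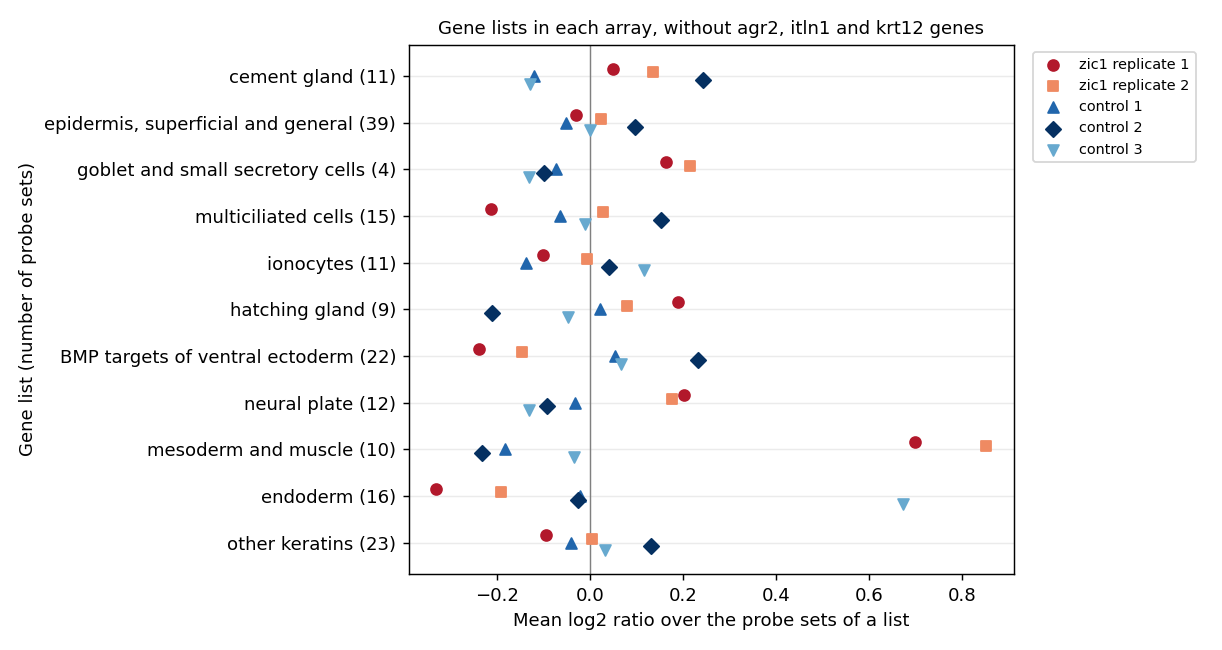
Mean log2 ratio (x axis) over the probe sets of each gene list in each array, with the number of probe sets in brackets and without the agr2, itln1 and krt12 probe sets. Control 2 has the highest mean for the cement gland, epidermis, multiciliated cell, BMP target and other keratin lists. The epidermis and other keratin lists share probe sets. By the median over probe sets, control 2 was at -0.02 for the cement gland list (zic1 replicate 1 at 0.08) and at 0 for epidermis. It was also at 0 for other keratins (control 3 at 0.01). Control 2 was still highest by the median for multiciliated cells (0.08) and BMP targets (0.16). Control 3 stands at 0.67 for endoderm, and both zic1 arrays are above the controls for neural plate and mesoderm.

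The genes whose log2 ratios lay closest to these patterns were found by the root mean square difference over the 5 arrays among probe sets with 1 symbol. Placeholder symbols such as LOC names were left out, as were all copies of the pattern's own gene and, for krt12, all krt12 genes. That left 9096 probe sets for agr2, 9097 for itln1 and 9091 for krt12. Agr2.S could thus not be found for agr2.L. Nearest to the mean of the agr2 probe sets were fut6.S (0.14), a fucosyltransferase, hm13.L (0.19), the signal peptide peptidase of the endoplasmic reticulum, menf.1.L (0.19), lmo4.1.S (0.20), a LIM-domain protein, and cyp20a1.L (0.20), a cytochrome P450. Fut6.S read 0.689 and 1.00 with zic1 against 1.19, 2.23 and 0.897 in the controls. For agr2.L alone, a choice made after its values were seen, the nearest was an ag1.S probe set (0.12).

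Nothing lay as close to itln1.L, but this distance grows with the size of a pattern. The root mean square log2 ratio was 1.72 for the itln1 pattern, against 0.66 for the agr2 mean and 0.34 for the krt12 mean. The nearest probe set was krt12.4.S at a root mean square log2 difference of 0.80, followed by fucolectin.S (0.85), whose name is that of fucose-binding lectins, slc38a2.L (0.97), an amino acid transporter, ccn2.L (0.99), a secreted matricellular protein, and urod.L (1.06), an enzyme of heme synthesis. Fucolectin.S read 0.210 and 0.757 with zic1 against 1.00, 2.51 and 1.23 in the controls. Its lowest array was that of itln1.L, but its highest was control 2. Nearest to the mean of the 7 krt12 probe sets, a shallow pattern since 4 of them are flat, were dapk2.L (0.06), atp12a.L (0.08), a proton pump, syt1.L (0.09), cfap20.L (0.09) and bcat1.L (0.10).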

How the data were processed

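The deposited values are linear ratios, made by the authors in a way the sources used here do not fully state. GCOS and RMA are named in the submitters' processing notes, without versions or roles. Each of the 15571 complete probe sets had a median of exactly 1 (tolerance 0), which shows the centring. Of 15572 probe sets, 81 Affymetrix controls and 1 without 5 values were left out. Of 15490 tested, 9303 had 1 symbol, 195 several and 5992 none here. Members and lists were chosen with earlier results of these data known. All 10 member probe sets matched the gene table by gene identifier. That table's assembly is not tied to these arrays, so it served only for names and neighbours and no coordinates are given. No sequences were used here.

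Log2 ratios were fitted with limma 3.58.1 in R 4.3.3 (lmFit, eBayes; 3 residual and 2.29 prior degrees of freedom), two-sided, with Benjamini-Hochberg adjustment over all 15490 and a threshold of 0.05. The ratios held no zeros, so no pseudocount was used. The fit was tested on simulated data. These were independent values drawn from its own variance model, without linked arrays, so the test does not show how far the calls in these arrays hold. Named genes were all members, list probe sets past the threshold and up to 4 per list by moderated t. The 5 nearest patterns for each of agr2, itln1 and krt12 were named too. Others are said to be chosen after seeing values. So were the list members shown for their spread among controls (krt70.L, krt19.S, atp6v1b1.L and 1 atp6v1a.L probe set). The further cement gland probe sets of otx2.S and pitx1.L were also chosen after seeing values. Alternatives were quantile normalization, log2(value + 1), array weights, a replicate block, a block for the arrays sharing equal values, a robust prior, a threshold of 0.10 and each array left out. Plots used matplotlib 3.10.9 in Python 3.11.15.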

Additional observations from a re-analysis of the deposited data

How the results depend on the processing

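Of 60 differences of the 10 probe sets of agr2, itln1 and krt12 recomputed under quantile normalization, log2(value + 1), array weights, the 2 blocks and the robust prior, 59 moved by less than the residual SD between replicates. The exception was agr2.S, at -0.61 with log2(value + 1), against -1.29 without the added 1. The robust prior changes only the variance, so its values for the 10 probe sets could not move. The limit was each probe set's own residual SD, 0.52 for agr2.S but 1.74 for itln1.L and 0.94 for krt12.4.S. Adding 1 shrank other differences too. Itln1.L went from -2.08 to -0.83, krt12.4.S from -1.53 to -0.71 and krt12.5.S from -0.76 to -0.36. With single arrays left out krt12.5.S ran from -1.23 to -0.29, and 0 of the 10 were called each time. The median SD among controls became 0.24 with log2(value + 1). Over all probe sets limma called 219, and 109 after quantile normalization, 935 with array weights, 37 with the arrays sharing equal values as a block (34 of them among the 219), 1054 at an adjusted p under 0.10, and from 0 to 207 with an array left out (0 without either zic1 array, though 1467 and 2483 then had an unadjusted p under 0.05; 21 without control 1 and 5 without control 2). A fit with 1 zic1 array takes its variance from the controls. Of 162 probe sets of the other lists 4 were called, and 2, 16, 3 and 19 under the same 4 settings in that order, and from 0 to 6 with an array left out. The cause of these moves was not tested.

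The titles number 2 arrays of each group alike, without saying what they share. The differences between replicates 2 and 1 correlated across probe sets between zic1 and control (r = 0.38; probe sets are not independent replicates), with only 2 pairs. With the replicate block, which leaves 1 residual degree of freedom, limma called 2692 of all probe sets, 45 of the lists and 4 of the 10. Control 3 is the only array numbered 3, so this block takes it out of the comparison. The differences are then those without control 3, such as -0.79 for agr2.L and -1.61 for itln1.L under either setting. The 10 were selected on these values, so nothing is read from the count of 4. With 2 and 3 arrays a group, no group was large enough for a search for outlying samples.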
